A study of Populus euphratica with 12 samples.

Results

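The most abundant leaf mRNAs of *Populus euphratica*, a desert poplar, were described across its 4 leaf shapes. The 100 mRNA transcripts with the highest mean FPKM (fragments scaled by transcript length and library size) over 12 libraries were taken, and those also among the 100 with the lowest coefficient of variation (CV, the SD divided by the mean) of the 7123 transcripts with a mean of at least 20 FPKM were left out. One transcript, of the gene LOC105114842, was left out in this way (mean 705 FPKM, CV 0.0815), so 99 of 49676 mRNAs remained, and they came from 99 genes. The mean and the CV of each mRNA therefore chose the members, and both are given only as a description. The last mRNA inside the limit, of LOC105122923, had a mean of 471 FPKM, and the first outside, of LOC105127481, one of 468 FPKM. On the side of the CV, the member nearest to being left out was the most abundant of all, LOC105121653, whose CV of 0.104 was the 173rd lowest, while the 100 lowest ended at 0.0924.

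The leaves were the second juvenile leaves of buds taken in April from trees of different age. The linear leaves (Li) came from trees of 0 to 3 years and the lanceolate leaves (La) from trees of 4 to 6 years. The ovate leaves (Ov) came from trees of 8 to 12 years, and the broad-ovate leaves (Bo) from trees of over 20 years. Each group had 3 libraries of total RNA depleted of ribosomal RNA, which the study calls biological replicates, and Li1 stands for the first library of Li. Leaf shape and tree age changed together over the groups and cannot be told apart. In whole leaves, fewer cells of a type and less RNA per cell cannot be told apart either.

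In most tissues a small number of genes supplies a large part of the mRNA. In a green leaf these usually include the small chain of Rubisco, the enzyme that fixes carbon dioxide, and the proteins that bind chlorophyll in the light-harvesting antennae. Other common members are metallothioneins, which are small cysteine-rich proteins that bind metals, together with ribosomal proteins, histones and aquaporins. Because FPKM is a share of a library, a rise of a few very abundant mRNAs lowers the values of all others.

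Of the 99 members, 19 could be given a name. The RefSeq gene table has a symbol other than a locus number for 12 of them, and the study's supplementary list gives a product for 7 more. That list holds RNAs the study picked from these same libraries for following leaf shape, so the direction of those 7 members is not independent evidence. The other 80 are named by locus number only, with no remark on their role. Genes typical of green leaves were among the members, with 2 transcripts of Rubisco small chain genes (LOC105123372 and LOC105119284), a light-harvesting chlorophyll a-b binding protein of type 1 (LOC105140098) and the photosystem subunits PSAL, PSAE-1 and PSBW. Outside the members, the wax synthesis gene CER3 had a mean of 421 FPKM, the phloem gene PP2-A14 one of 20.5 FPKM and the meristem gene KNAT1 one of 6.96 FPKM.

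Libraries La3, Ov3 and Bo3 stood apart from the others of their groups. Their summed mRNA values were the 3 lowest of the 12 (713742, 680148 and 671282 FPKM), while the other 9 libraries had between 724700 FPKM in Bo2 and 770979 FPKM in Li3. In these 3 libraries, 16 of 99 members (16.2%) were higher than in both other libraries of the same group, against 9.33% of all 32309 mRNAs tested, and 27 members (27.3%) were lower, against 20.5%. For several of the named members in which these libraries stand apart, the changes are therefore also given without them. How many reads lie behind an FPKM value is unknown.

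The 99 members took between 13.4% and 17.8% of the mRNA, and no group stood apart. They held 16.3%, 15.4% and 15.7% of the summed FPKM in Li1, Li2 and Li3, and 16.0%, 16.2% and 17.8% in La1, La2 and La3. They held 16.5%, 16.0% and 17.6% in Ov1, Ov2 and Ov3, and 13.4%, 15.5% and 17.3% in Bo1, Bo2 and Bo3. The group means were 15.8% ± 0.479 for Li, 16.6% ± 0.971 for La, 16.7% ± 0.838 for Ov and 15.4% ± 1.92 for Bo (SD, n = 3 each), and the groups overlapped. The 3 highest shares were those of La3, Ov3 and Bo3, and Bo1 had the lowest. Without La3, Ov3 and Bo3 the means of the La, Ov and Bo groups were 16.1%, 16.2% and 14.5%. The share was not tested, because its members were chosen on these libraries.

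**Figure D1:**
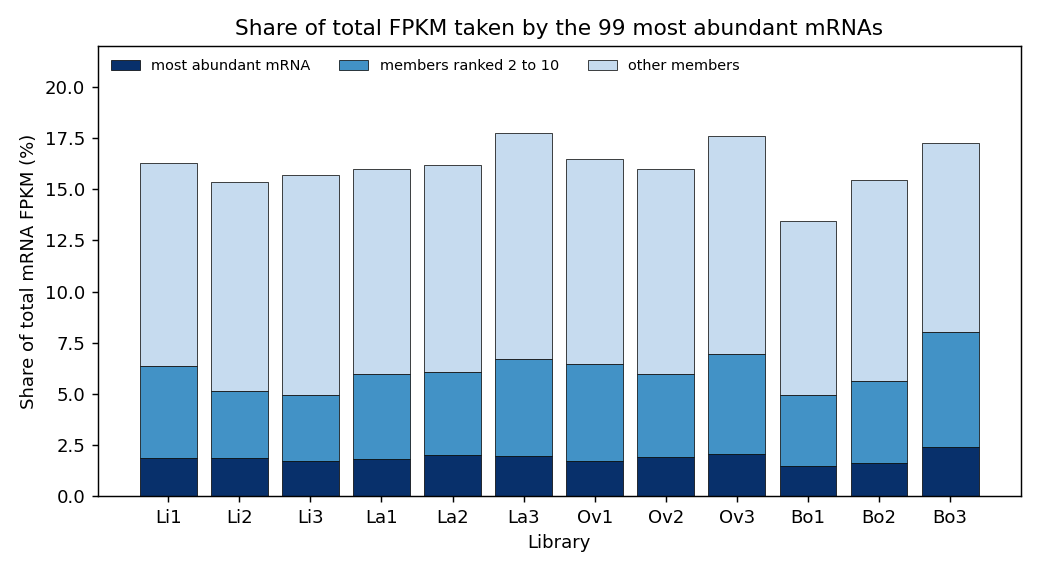
Share of the summed mRNA FPKM (vertical axis, percent) taken by the 99 members in each of the 12 libraries (horizontal axis), with the most abundant mRNA, the members ranked 2 to 10 and the other members stacked in each bar. The bars run from 13.4% in Bo1 to 17.8% in La3, and the most abundant mRNA alone takes 1.48% to 2.41%.

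Within the members the distribution was steep. The most abundant mRNA, of LOC105121653, alone took between 1.48% (Bo1) and 2.41% (Bo3) of the summed FPKM, and the first 10 members together took between 4.92% (Li3) and 8.01% (Bo3). Each library had its own list of the 100 highest mRNAs, which took between 14.5% (Bo1) and 19.6% (Bo3), and between 62 (Bo3) and 83 (La1) of the members were on it. Only 24 members were on that list in all 12 libraries, while 25 were on it in 6 libraries or fewer. It took between 1192 mRNAs (Li2) and 1663 mRNAs (Bo1) to reach 50% of the summed FPKM. The 3 Li libraries needed 1192 to 1297, fewer than the 3 Bo libraries with 1381 to 1663.

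LOC105121653 was the highest mRNA in every library and the steadiest member. It stood at 13723, 14515 and 13115 FPKM in Li1, Li2 and Li3, at 13262, 14934 and 13906 FPKM in La1, La2 and La3, at 12758, 14093 and 13935 FPKM in Ov1, Ov2 and Ov3, and at 10855, 11736 and 16206 FPKM in Bo1, Bo2 and Bo3. Its lowest and highest values both lay in the Bo group, 1.49-fold apart, and all 4 groups overlapped. After it came LOC105112983, with 6849, 8069 and 7729 FPKM in the Li libraries, 6332, 4539 and 6639 FPKM in La, 9199, 4381 and 4779 FPKM in Ov, and 6177, 5032 and 2107 FPKM in Bo. Here Ov1 was the highest library and Bo3 the lowest, and the groups again overlapped, except that the 3 Li libraries lay above all 3 of La and all 3 of Bo. The third, LOC105121685, had a mean of 5031 FPKM and reached its highest value, 9272 FPKM, in Bo3, where LOC105121653 was highest too. In the RefSeq table only 2 genes lie between LOC105121653 and LOC105121685, and over the 12 libraries their Spearman correlation was 0.69.

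The differences between groups were tested with limma on log2(FPKM + 1) over all 32309 mRNAs with a mean of at least 0.5 FPKM, two-sided, with Benjamini-Hochberg adjustment over all of them. No member passed an adjusted p of 0.05 in any of the 6 pairs of groups, nor in the F test over the 4 groups. The background was low too. In Bo/Li (Bo against Li) 0.508% of all mRNAs tested were called, in Ov/Li 0.306%, in Bo/La 0.149%, in Bo/Ov 0.108% and in La/Li 0.0279%, while in Ov/La none was called (percent called 0) and the F test called 0.266%. The smallest adjusted p of a member was 0.0588 in Bo/Li, 0.0616 in Ov/Li, 0.211 in La/Li, 0.267 in Bo/Ov, 0.338 in Bo/La and 1 in Ov/La.

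At an unadjusted p under 0.05, 22 members passed in Bo/Li (9 higher and 13 lower in Bo), which is 22.2% against 18.6% of all mRNAs tested (12.1% higher and 6.44% lower). In Ov/Li 20 passed (20.2%, 9 higher and 11 lower), against a background of 19.3% (11.3% higher and 7.95% lower). In La/Li 11 passed (11.1%, 8 higher and 3 lower), against 13.5% (8.17% higher and 5.35% lower). Fewer members passed between the groups of older trees, with 1 in Ov/La (1.01%, background 2.05%), 5 in Bo/La (5.05%, background 8.07%) and 4 in Bo/Ov (4.04%, background 8.56%). The F test passed 13 members, or 13.1% against 14.9%. The members' share was thus close to the background in Ov/Li, somewhat above it in Bo/Li and somewhat below it in the other pairs. These differences amount to few members and were not tested, so nothing is read from them. Without La3, Ov3 and Bo3, 23 members (23.2%) passed in Bo/Li, 22 (22.2%) in Ov/Li, 13 (13.1%) in La/Li, 3 (3.03%) in Ov/La, 11 (11.1%) in Bo/La and 7 (7.07%) in Bo/Ov, against 19.6%, 18.4%, 15.4%, 4.21%, 14.1% and 12.3% of all mRNAs tested.

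In direction, however, more members were lower than higher in Bo. Against Li, 64 members had a log2 change below 0 and 35 above, with a median of -0.28, while the median over all mRNAs tested was 0.07 and 54.7% of them were above 0. Without Li3 the median of the members was -0.151 and 58 lay below 0. Against La, 70 members lay below 0 and the median was -0.22, while 56.1% of all mRNAs tested were above 0 with a median of 0.05. Without Bo3 this median was -0.107 with 59 members below 0, and without La3, Ov3 and Bo3 it was -0.159 with 63 below 0. Against Ov, 62 members lay below 0 and the median was -0.11, while 56.7% of all mRNAs tested were above 0 with a median of 0.07. This median was -0.0198 with 52 members below 0 without Ov2, -0.210 with 66 below 0 without Ov3, and -0.130 with 58 below 0 without La3, Ov3 and Bo3. With every library scaled to the same summed FPKM, the medians of the members and of all mRNAs in Bo/Li were -0.18 and 0.14, and without La3, Ov3 and Bo3 they were -0.22 and 0.11 with 58 members below 0. In La/Li and Ov/Li the members lay around 0, with medians of -0.02 and -0.06, and both turned to values above 0 (0.03 and 0.02) with equal totals. In 25 members (25.3%) all 3 Bo libraries lay below all 3 Li libraries, against 10.4% of all mRNAs tested, and in 10 members (10.1%) all 3 lay above, against 16.4%. Members were chosen on their means in these same libraries, so an mRNA can be a member through high values in a single group. The directions and counts given here are therefore a description and were not tested against the background. The group with the highest mean was Li for 41 members, La for 23, Ov for 24 and Bo for 11. The same count over all mRNAs tested was not made, so nothing is read from it. The mean summed FPKM was also higher in Li (759995) than in Bo (709935).

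Same-numbered libraries of La and Ov deviated together from their group means, with correlations of 0.246, 0.641 and 0.662. Those of Ov and Bo did so less (0.321, 0.0407 and 0.289), though the first exceeded that of La1 with Ov1. For La with Bo the correlations were 0.138, -0.0232 and 0.158, and for Li with the other groups they ran from -0.21 to 0.109. Libraries of unlike number were not compared, and La3, Ov3 and Bo3 stood apart together. Whether the number itself matters is therefore unknown. With the number as a block within La and Ov, 6 of the 99 members passed in Ov/Li and 5 in Bo/Li by limma's adjusted p, and 2 in the F test. In both pairs LOC105126728, LOC105115294, LOC105112981 and LOC105129176 were called higher than in Li. Called lower were LOC105115736 and LOC105129823 in Ov/Li, and LOC105107291 in Bo/Li. The block takes out spread that La and Ov share, and the remaining, smaller spread is also applied to Li and Bo, to which the block does not extend. In the same fit 1680 of the 32309 mRNAs tested were called in Ov/Li, 944 in Bo/Li and 623 in the F test. The calls thus rose over all mRNAs and not only among the members. The members' counts were not tested against this background, so the named members are not set apart by these calls.

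**Figure D2:**
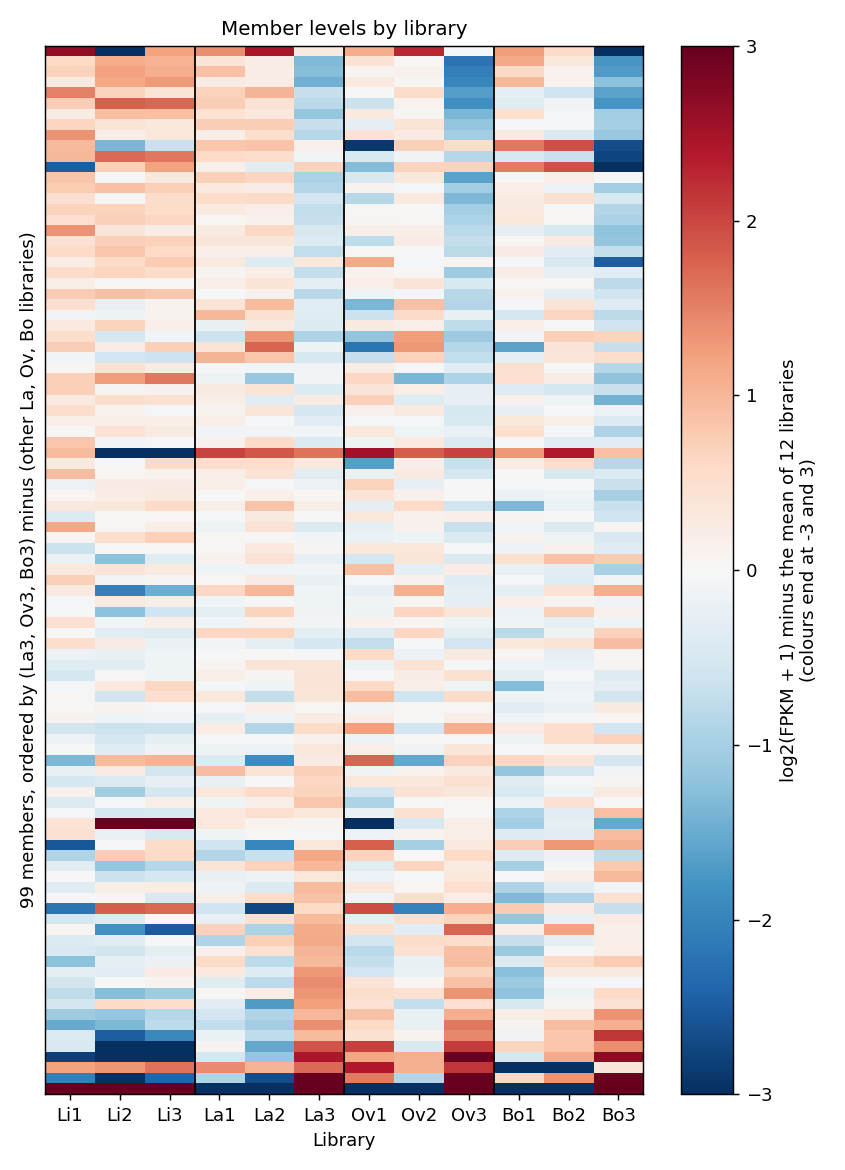
Level of each of the 99 members (rows) in the 12 libraries (columns) as log2(FPKM + 1) minus its mean over the 12 libraries, with blue below and red above the mean and colours ending at -3 and 3. Rows run from members lowest to members highest in La3, Ov3 and Bo3 relative to the other La, Ov and Bo libraries, and the 16 members higher in all 3 of these libraries are mostly below their mean in Li.

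Among the photosynthesis members, the Rubisco small chain transcripts were the most abundant. LOC105123372 stood at 5655, 2885 and 2604 FPKM in the Li libraries, at 2680, 3442 and 1609 FPKM in La, at 2499, 2570 and 1280 FPKM in Ov, and at 1851, 1618 and 964 FPKM in Bo. All 3 Bo libraries lay below all 3 Li libraries, with a log2 change of -1.29 ± 0.585 (SE) and an adjusted p of 0.267 by limma. These were -1.01 ± 0.456 (SE) and 0.270 without La3, Ov3 and Bo3. The other transcript, of LOC105119284, was present in some libraries and nearly absent from others. It reached 297, 2516 and 2362 FPKM in Li1, Li2 and Li3, and 589, 549 and 500 FPKM in La3, Ov3 and Bo3. In La1, La2, Ov1, Ov2, Bo1 and Bo2 it was at most 1.59 FPKM. Within La, Ov and Bo it was thus high in the third library of each group and at or near 0 in the others. With all libraries it passed in no pair (adjusted p 0.248 in Ov/Li and 0.277 in Bo/Li by limma). When La3, Ov3 and Bo3 were left out it was called lower than in Li in La/Li, Ov/Li and Bo/Li (adjusted p 0.0443, 0.0164 and 0.00159). That choice, made after seeing the data, removes every La, Ov and Bo library in which this mRNA was high. Nothing is therefore read from these calls.

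A read that fits both of these transcripts is divided between them in the deposited values, so their sum was also taken, a choice made after their values were seen. The sum was 5952, 5401 and 4966 FPKM in the Li libraries (mean 5440 ± 494, SD, n = 3), and 2680, 3442 and 2198 FPKM in La (2774 ± 627). In Ov it was 2499, 2570 and 1829 FPKM (2299 ± 409), and in Bo 1853, 1618 and 1464 FPKM (1645 ± 196). The 3 Li libraries lay above all 9 others, and La3, Ov3 and Bo3 were each the lowest of their group. Both transcripts are named only through the study's list of RNAs that follow leaf shape, so the direction of their sum is not independent evidence. Small chain transcripts without a name would be missing from it. The CV of the sum over the 12 libraries was 0.512, close to the 0.501 of LOC105123372 alone and far under the 1.60 of LOC105119284, which was the highest CV of all members.

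**Figure D3:**
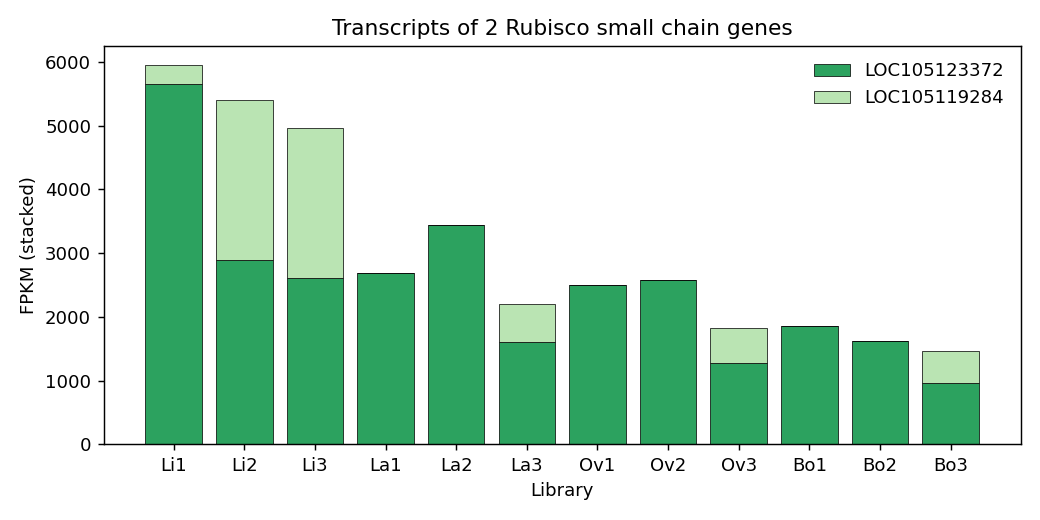
FPKM (vertical axis, stacked) of the transcripts of the Rubisco small chain genes LOC105123372 and LOC105119284 in each library (horizontal axis). LOC105119284 is seen in the Li libraries and in La3, Ov3 and Bo3, and the stacked bars are highest in Li1, Li2 and Li3 (4966 to 5952 FPKM). Both genes are named only through the study's list of RNAs that follow leaf shape.

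The light-harvesting protein LOC105140098, which binds chlorophyll in the antenna of photosystem II, followed LOC105123372 closely (Spearman correlation 0.98 over the 12 libraries). It stood at 1650, 920 and 768 FPKM in Li, at 936, 1188 and 361 FPKM in La, at 573, 849 and 185 FPKM in Ov, and at 486, 385 and 190 FPKM in Bo. Libraries La3, Ov3 and Bo3 were the lowest of their groups, and all 3 Bo libraries lay below Li, with a log2 change of -1.67 ± 0.643 (SE) and an adjusted p of 0.208 by limma (-1.28 ± 0.378, SE, and 0.128 without La3, Ov3 and Bo3). The next gene in the RefSeq table, LOC105140099, is also a member, with a mean of 1340 FPKM and a Spearman correlation of 0.78 with it. Reads that match both neighbours would be divided between them, which was not tested.

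The photosystem subunits varied less. PSAL, a subunit of photosystem I, had 659 ± 134 FPKM in Li, 550 ± 51.9 FPKM in La, 568 ± 51.9 FPKM in Ov and 496 ± 30.8 FPKM in Bo (mean and SD, n = 3), and its CV of 0.159 was among the 5 lowest of the members. PSAE-1, another subunit of photosystem I, ranged from 394 FPKM in Bo2 to 837 FPKM in Li1, and PSBW, a small subunit of photosystem II, from 429 FPKM in Ov3 to 1038 FPKM in Li1. For these 3 the log2 changes in Bo/Li were -0.39, -0.41 and -0.46, with adjusted p-values of 0.452, 0.487 and 0.522 by limma. Together, the 6 photosynthesis members had group means of 1.13% ± 0.225 (Li), 0.726% ± 0.174 (La), 0.614% ± 0.113 (Ov) and 0.485% ± 0.0424 (Bo) of the summed FPKM (SD, n = 3). The 3 Li libraries, with 0.971% to 1.39%, lay above the 9 others, with 0.458% to 0.903%. Without La3, Ov3 and Bo3 the means of La, Ov and Bo were 0.811%, 0.674% and 0.496%. LOC105123372, LOC105119284 and LOC105140098 are named only through the study's list of RNAs that follow leaf shape. The direction of this sum is therefore not independent evidence, and members without a name may include other photosynthesis genes.

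Other genes of the same pathway were less abundant. A list of 11 photosystem and light-harvesting symbols matched 12 transcripts, of which 3 were members, and by limma's adjusted p none was higher and 1 was lower in Bo/Li. That one was LHCA5, a minor antenna protein of photosystem I and no member, with group means of 21.6, 6.96, 5.85 and 2.97 FPKM from Li to Bo (log2 change in Bo/Li -2.45, adjusted p 0.0346 by limma). The median log2 change of the 12 was -0.50 in Bo/Li, while that of all mRNAs tested was 0.07. Among 10 tested transcripts of ribosomal protein and translation factor symbols, none a member, none passed in Bo/Li, and the median was -0.61. Low medians in Bo/Li were not particular to these lists. They were -0.75 for cell wall and wax (10 tested transcripts), -0.74 for the cytoskeleton (3), -0.58 for tonoplast aquaporins (2) and -0.56 for dividing cells and histones (6). The meristem gene KNAT1 had -1.23, stress proteins and antioxidants -0.08 (8 tested transcripts), and phloem genes 0.55 (2). Medians of so few transcripts are a description only and do not stand for whole pathways.

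Members of protein synthesis and chromatin had their highest group means in Li. The 60S acidic ribosomal protein P1 (LOC105126252), part of the ribosome's stalk, stood at 1266, 1363 and 1232 FPKM in the Li libraries, at 909, 875 and 405 FPKM in La, at 800, 729 and 361 FPKM in Ov, and at 847, 655 and 362 FPKM in Bo. The Li libraries lay above all others, and La3, Ov3 and Bo3 were the lowest of their groups. By limma the log2 change in Bo/Li was -1.13 ± 0.467 (SE, adjusted p 0.234), and -0.79 ± 0.245 (SE, adjusted p 0.141) without La3, Ov3 and Bo3. The histone gene HTA12, which encodes a form of histone H2A, ranged from 657 to 1048 FPKM in Li, and was at 253, 216 and 274 FPKM in La3, Ov3 and Bo3, while the other La, Ov and Bo libraries had 551 to 802 FPKM. Its log2 change in Bo/Li was -0.86 (adjusted p 0.448 by limma), and -0.43 (adjusted p 0.482) without La3, Ov3 and Bo3.

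Among members named by locus number only, LOC105129823 had 1001, 1083 and 1028 FPKM in Li and 334 to 650 FPKM in all other libraries (log2 change in Bo/Li -1.06 ± 0.361, SE, adjusted p 0.168 by limma). The Li libraries of this mRNA lay above all others.

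The apyrase 2-like member LOC105107291, of a family that splits phosphate from nucleoside triphosphates and diphosphates, had the smallest adjusted p of the members. It stood at 734, 1191 and 1096 FPKM in Li, at 556, 525 and 348 FPKM in La, at 269, 340 and 203 FPKM in Ov, and at 262, 230 and 53.5 FPKM in Bo. All Li libraries lay above all La libraries, and those above all Ov libraries, while Ov and Bo overlapped. Its log2 change was -2.73 ± 0.532 (SE) in Bo/Li, with an adjusted p of 0.0588 by limma, and -1.89 ± 0.532 in Ov/Li (adjusted p 0.117). It passed in Bo/Li without Bo3 (log2 change -2.00, adjusted p 0.0196), with upper quartile scaling (adjusted p 0.0417) and with equal totals (0.0488). Without La3, Ov3 and Bo3, a choice made after seeing the data, the log2 change was -2.00 and the adjusted p by limma 0.00844. Over all alternatives its adjusted p in this pair ran from 0.00844 to 0.215.

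The bark storage protein B-like member LOC105139659, of a family that poplars use to store nitrogen, was carried by 2 libraries. It had 1975 and 2207 FPKM in Li2 and Li3 but 328 FPKM in Li1, and from 15.5 FPKM in Ov1 to 309 FPKM in La1 in the other groups. It was among the 100 highest mRNAs in those 2 libraries only, and its CV of 1.43 was the second highest of the members. All 3 Li libraries lay above all others, though Li1 only narrowly. The log2 change was -3.58 ± 0.977 (SE) in Ov/Li and -3.13 ± 0.977 in Bo/Li, with adjusted p-values of 0.109 and 0.145 by limma.

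Other members were lowest in Li. The metallothionein-like protein type 2 (LOC105122463), the fourth most abundant mRNA, stood at 1826, 1716 and 2099 FPKM in Li and at 2587, 2054 and 7668 FPKM in La. In Ov it stood at 7030, 3265 and 8084 FPKM, and in Bo at 4390, 4664 and 9705 FPKM. The Ov and Bo libraries lay above all Li libraries, La overlapped with Li, and in each of La, Ov and Bo the third library was the highest. Its log2 change was 1.61 ± 0.752 (SE) in Ov/Li and 1.64 ± 0.752 in Bo/Li, with adjusted p-values of 0.269 and 0.273 by limma. Without La3, Ov3 and Bo3 the log2 changes were 1.35 ± 0.454 and 1.27 ± 0.454 (SE), with adjusted p-values of 0.186 and 0.183.

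The 3 members most like it over the 12 libraries were LOC105126728 and LOC105129176 (Spearman correlation 0.965 for each) and LOC105110579 (0.96). LOC105126728 had 52.4, 25.8 and 44.7 FPKM in Li, 255, 164 and 1991 FPKM in La, 839, 779 and 3481 FPKM in Ov, and 260, 814 and 2410 FPKM in Bo. All Li libraries lay below all others, and La3, Ov3 and Bo3 were the highest of their groups by a wide margin. Its log2 change was 5.03 ± 1.0 (SE) in Ov/Li and 4.31 ± 1.0 in Bo/Li, with adjusted p-values of 0.0616 and 0.0816 by limma, and without La3, Ov3 and Bo3 it passed in both pairs (log2 changes 4.33 and 3.52, adjusted p 0.0354 and 0.0112). Over all alternatives its adjusted p ran from 0.0113 to 0.228 in Ov/Li and from 0.0112 to 0.29 in Bo/Li.

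LOC105110579, the seventh most abundant mRNA, ranged from 323 to 1329 FPKM in Li and reached 3459, 4900 and 7974 FPKM in La3, Ov3 and Bo3, with 1063 to 3172 FPKM in the other libraries. LOC105115294 had 12.9 to 49.1 FPKM in Li and 1920, 1821 and 1591 FPKM in La3, Ov3 and Bo3, while the remaining La, Ov and Bo libraries had 31.7 to 611 FPKM. LOC105112981 had 318, 49.3 and 39.2 FPKM in Li and from 150 FPKM in La2 to 1882 FPKM in Ov3 elsewhere. The last 2 were, with LOC105126728, LOC105139659 and LOC105119284, the 5 members of highest CV (from 0.883 to 1.60). LOC105112981 lies 1 gene away from LOC105112983, the second most abundant mRNA, in the RefSeq table, and their Spearman correlation over the 12 libraries was -0.19.

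SAG21, a senescence-associated gene known from *Arabidopsis*, had 291 to 608 FPKM in Li and 397 to 1357 FPKM elsewhere, and La3, Ov3 and Bo3 were again the highest libraries of their groups (1357, 1305 and 1170 FPKM). Its log2 changes against Li were between 0.56 and 0.87, with adjusted p-values of 0.439 to 0.610 by limma, and without La3, Ov3 and Bo3 those in Ov/Li and Bo/Li were 0.10 and 0.65 (adjusted p 0.939 and 0.532). At the opposite end from the metallothionein-like mRNA stood LOC105123372, the Rubisco small chain transcript, and LOC105115736 (Spearman correlation -0.95 for each). Of the 98 other members, 6 had a correlation of at least 0.8 with the metallothionein-like mRNA and 16 one of -0.8 or less. These correlations are over 12 libraries that share the division of the library total, so an mRNA that takes more of it lowers the others.

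**Figure D4:**
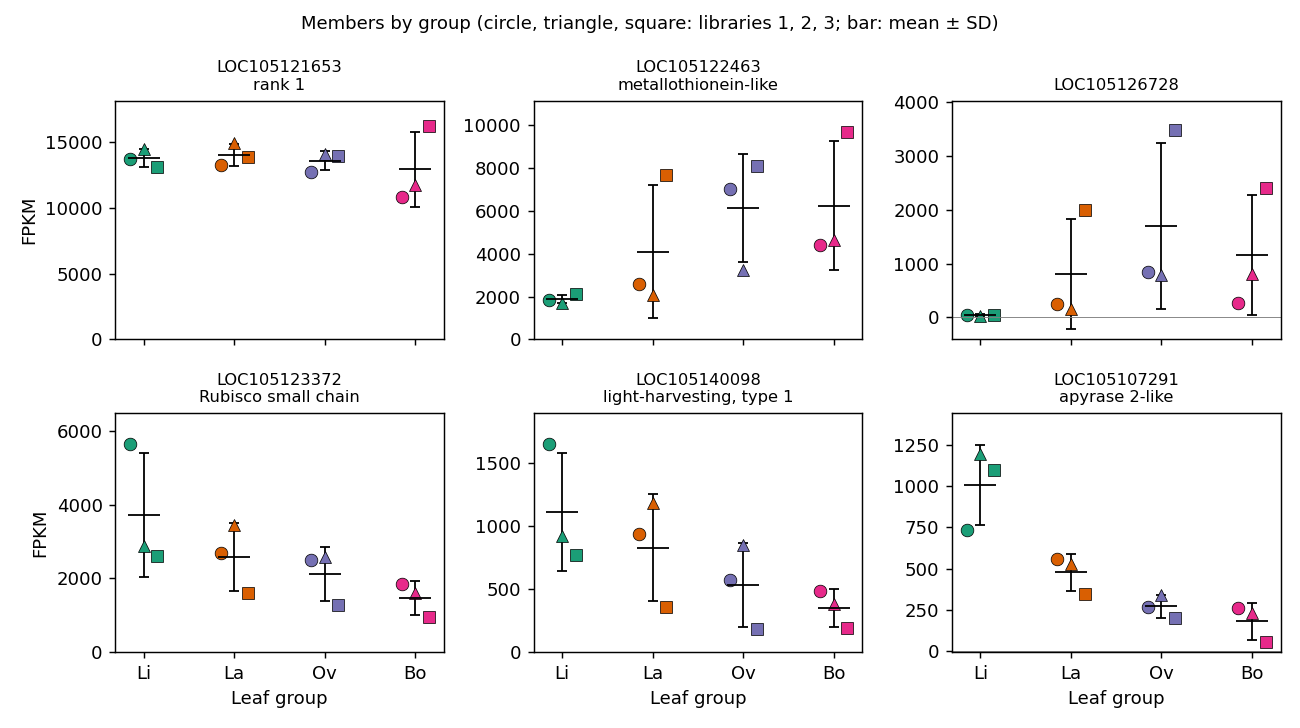
FPKM (vertical axes, each starting at or below 0) of 6 members in the 4 leaf groups (horizontal axes), with a symbol per library and the mean ± SD of 3 libraries as bars. LOC105121653 is nearly level, LOC105122463 and LOC105126728 are lowest in Li and highest in the third libraries (squares), and LOC105123372, LOC105140098 and LOC105107291 are lowest in Bo.

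Seen as sets, the members that were higher and those that were lower in La3, Ov3 and Bo3 differed in opposite ways between libraries. The sets were chosen on these values, so their sums are a description. The 16 higher members took 1.38% to 1.77% of the summed FPKM in Li, 1.71% to 2.88% in the first 2 libraries of La, Ov and Bo, and 5.07%, 5.43% and 5.28% in La3, Ov3 and Bo3. The 27 lower members took 4.61% to 5.41% in Li, 3.16% to 4.46% in the first 2 libraries of the other groups and 2.21%, 1.79% and 1.97% in La3, Ov3 and Bo3. The other 56 members took 8.05% (Bo1) to 10.5% (La3). Besides the 27, which held LOC105123372, LOC105140098, LOC105126252, LOC105107291 and HTA12, and the 16, which held LOC105122463, SAG21 and DIC2, the remaining named members belonged to neither set, apart from LOC105119284, which was among the 16.

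**Figure D5:**
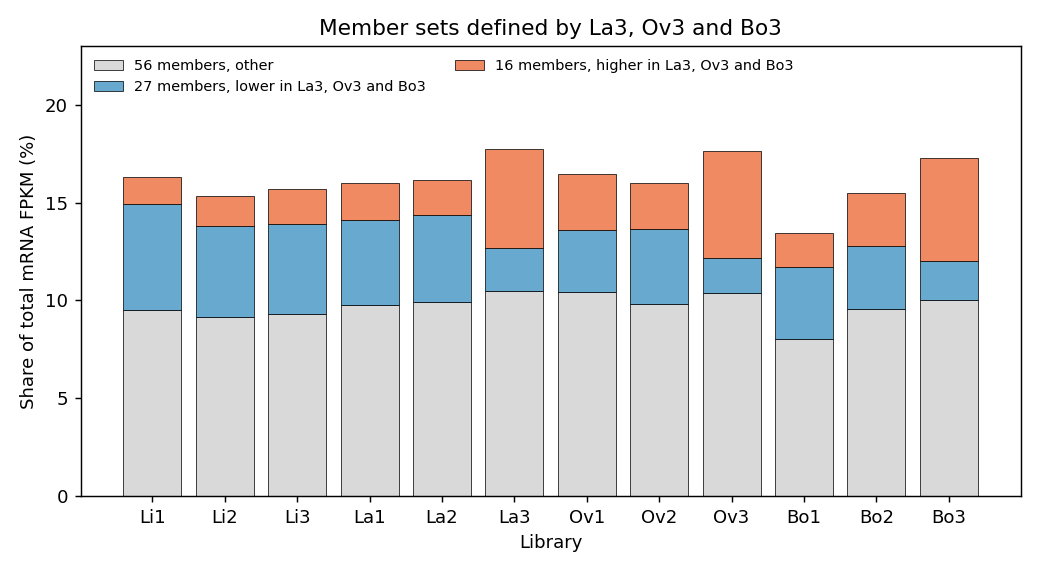
Share of the summed mRNA FPKM (vertical axis, percent) in each library (horizontal axis) for the 16 members higher and the 27 members lower in La3, Ov3 and Bo3 than in both other libraries of the same group, and for the other 56 members. The first set takes 5.07% to 5.43% in La3, Ov3 and Bo3, and 2.88% or less in the other libraries.

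Several members had high values in some libraries and values near 0 in others, called on and off here. Reads of similar transcripts are divided in these values, and whether this bears on the pattern was not tested. LOC105123313, the ninth most abundant mRNA, stood at 1386 FPKM in Li1 but at 0.975 and 0.474 FPKM in Li2 and Li3, while the La, Ov and Bo libraries had 1354 to 4096 FPKM. Its log2 change of 7.34 ± 1.98 (SE) in La/Li had an adjusted p of 0.211 by limma. Without Li1 it passed in La/Li, Ov/Li and Bo/Li with log2 changes of 10.56, 10.84 and 10.26. Leaving out Li1 removes the only Li library in which it was on, so nothing further is read from this. LOC105117309 was the reverse case, with 2.09 and 5.63 FPKM in Bo1 and Bo2 and 837 FPKM in Bo3, and 1306 to 3440 FPKM in all libraries of Li, La and Ov.

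The 3 Bo libraries of LOC105117309 lay below all 9 others, with log2 changes of -6.04, -6.03 and -6.52 (SE 1.57 each) in Bo/Li, Bo/La and Bo/Ov and adjusted p-values of 0.102, 0.338 and 0.267 by limma. Without Bo3, the only Bo library in which it was on, it passed in these 3 pairs (adjusted p from 1.42e-05 to 1.84e-05 by limma). Nothing further is read from that either. LOC105119924 was at 1.60 FPKM in Li2 and 1.57 FPKM in Bo3 and between 238 and 1538 FPKM in the other 10 libraries. With LOC105119284, these were the 4 members under 10 FPKM in any library, and the other 95 stayed at or above 10 FPKM in all 12. The genes LOC105123313 and LOC105117309 each had another transcript in the files, with means of 0.111 and 11.6 FPKM.

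The remaining mRNAs of the first 15 were named by locus number. LOC105108595, the fifth, ranged from 1264 FPKM in Ov3 to 4862 FPKM in La1, and LOC105137273, the sixth, from 1100 FPKM in Bo1 to 4777 FPKM in La3. The tenth and eleventh, LOC105115749 and LOC105115756, are next to each other in the RefSeq table and had a Spearman correlation of 0.94. Both were highest in Li or La libraries (up to 3386 and 2633 FPKM) and lowest in Ov3 (617 and 699 FPKM). LOC105138833 had its highest value in Bo3 (3323 FPKM) and was the one member among the first 15 with all 3 Bo libraries above all Ov libraries (log2 change 0.998 ± 0.451, SE, adjusted p 0.581 by limma). LOC105141241 ranged from 638 FPKM in Ov1 to 3151 FPKM in La2, LOC105137964 from 749 FPKM in Bo1 to 3271 FPKM in La3, and LOC105132899 from 671 FPKM in Bo3 to 2449 FPKM in Li2.

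Among the other named members, MGL, which encodes a methionine gamma-lyase that breaks down methionine, was the one with the clearest order for Bo. It stood at 600, 293 and 538 FPKM in Li, at 745, 941 and 582 FPKM in La, at 479, 894 and 514 FPKM in Ov, and at 969, 1279 and 1174 FPKM in Bo. The 3 Bo libraries lay above all 9 others, with log2 changes of 1.31 ± 0.391 (SE) in Bo/Li and 0.91 ± 0.391 in Bo/Ov and adjusted p-values of 0.135 and 0.558 by limma. NRP1 had 657 to 1400 FPKM in Bo and 1969 to 2801 FPKM in La (log2 change in Bo/La -1.28 ± 0.443, SE, adjusted p 0.487).

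ADC2, an arginine decarboxylase of polyamine synthesis, had 748 to 776 FPKM in La1, La2, Ov2 and Bo3 and 277 to 484 FPKM in the other 8 libraries. DIC2, a mitochondrial dicarboxylate carrier, ranged from 439 FPKM in Bo1 to 1595 FPKM in La3, and MLP423, of the major latex protein family, from 636 FPKM in La2 to 1979 FPKM in Ov1. GAMMA-TIP, an aquaporin of the vacuole membrane, had group means of 909 ± 190, 794 ± 236, 785 ± 201 and 708 ± 55.6 FPKM in Li, La, Ov and Bo (SD, n = 3), which overlapped. The smallest adjusted p of these 4 in a pair with Li was 0.575, for DIC2 in Bo/Li, by limma.

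The steadiest members besides LOC105121653 and PSAL were LOC105115618 (CV 0.111), AILP1 (0.113) and LOC105111258 (0.155). AILP1 had means of 586 ± 54.1, 580 ± 111, 660 ± 48.0 and 586 ± 36.0 FPKM in the 4 groups from Li to Bo (SD, n = 3). In 11 members the highest library was less than 2-fold above the lowest. The median CV of the members was 0.399, and that of all 7123 mRNAs with a mean of at least 20 FPKM, the members included, was 0.303. Nothing is read from this, since the mean and the CV chose the members. A CV above 1 was seen in 4 members.

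Some features of the members were not used directly by the rule. Among the members, 9 (9.09%) came from genes with other annotated transcripts, against 51.7% of all mRNAs tested. The 51.7% counts a gene again for each of its transcripts tested, while the 99 members came from 99 genes. The percentages are therefore not comparable. A gene with several near-identical transcripts also has its reads divided between them in the deposited values. The rule ranked transcripts by FPKM, so it is not independent of this feature, and nothing is read from the difference. In 8 of the 9 genes the other transcripts made up at most 1.04% of the gene's summed mean FPKM. The exception was LOC105122113, whose other transcript had a mean of 166 FPKM, or 19.0% of the gene. No member had an antisense lncRNA by the authors' class codes, against a background of 0.136% of all mRNAs tested, at which a count of 0 among 99 does not set the members apart.

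Some members lay near one another in the RefSeq table. In its order, 9 pairs of members, made up of 15 genes, were separated by at most 4 genes. The same count for other mRNAs was not made, so whether this number is unusual is unknown. Pairs were taken by order and rising start position, without a check that both genes lie on the same sequence. The closest in profile were LOC105127525 and LOC105127534, which are adjacent (Spearman correlation 0.98). LOC105127525 had 168, 2734 and 2541 FPKM in Li, 513, 115 and 1162 FPKM in La, 2989, 189 and 1652 FPKM in Ov, and 1339, 916 and 476 FPKM in Bo. LOC105127534 was low in the same libraries (241 FPKM in Li1, 166 in La2 and 211 in Ov2). The median correlation over the 9 pairs was 0.69, against 0.04 over all 4851 pairs of members, and adjacent genes may share reads, which was not tested.

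By the authors' annotation, 11 members (11.1%) had a circRNA over them, against 2.36% of all mRNAs tested. Of 19 such circRNAs, 13 were detected in a single library, and LOC105137273 had 6 of the 19. A circRNA is found from reads over its back-splice junction, and whether the abundance of the mRNAs bears on this count was not tested. The exception in level was circRNA_0974 over LOC105111597, seen in all 12 libraries with 7.33 RPM (Bo3) to 84.5 RPM (Li3). Its Spearman correlation with the FPKM of LOC105111597, which had 1557, 2280 and 2845 FPKM in Li and 369 to 1459 FPKM elsewhere, was 0.96.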

How the data were processed

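RNA abundance in 12 libraries of juvenile leaves was read from the deposited tables. The mRNA and lncRNA values are FPKM, which the authors estimated with eXpress from reads aligned to transcripts of the PopEup_1.0 assembly with Bowtie2, which may report several alignments per read, so reads of similar transcripts are divided. The circRNA values are RPM, which the authors obtained with CIRI from back-splice junction reads, and they are only described here. The precision from depth is unknown. Symbols came from a RefSeq table of a later version of PopEup_1.0, which matched 49440 of 49676 mRNAs and all 99 members, and none of its positions are given.

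Group means were fitted to log2(FPKM + 1) of the 12 libraries by limma 3.58.1 under R 4.3.3 (moderated variances with trend), for 32309 mRNAs with a mean of at least 0.5 FPKM. The fit was tested on simulated data. Fold changes on this scale understate the change of low values, and p-values measure the spread between these libraries only. The trend widens the error at the top of the range: for LOC105121653 the fitted SE of 1.13 was 0.198 without it. The correlations of deviations of same-numbered libraries were 0.246, 0.641 and 0.662 for La with Ov, and 0.321, 0.0407 and 0.289 for Ov with Bo. A block within La and Ov alone is therefore a choice, and libraries of unlike number were not compared. Named are the 15 highest members, the 5 of highest and of lowest CV, the mRNAs at the limits, the 3 most like 1 named member, and, chosen after their values were seen, members with a gene name or a value of interest. The members and lists were chosen with earlier results of these data known. A planned grouping of the members by protein identity was not made, as protein sequences were not used here. Alternatives were other pseudocounts, filters, scalings, blocks, left-out libraries and other choices of members.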

Additional observations from a re-analysis of the deposited data

How the results depend on the processing

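All 63 pairs of a member and a comparison with an unadjusted p under 0.05 kept their direction under every alternative run. The counts of members called, all 0 by limma, ran from 0 to 2 in Ov/Li, Bo/Li and the F test and from 0 to 1 in La/Li, Bo/La and Bo/Ov when 1 library was left out, and stayed 0 in Ov/La. Without Li1 it was LOC105123313, without La3 LOC105126728, and without Bo3 LOC105107291, LOC105117309 and LOC105126728. Without La3, Ov3 and Bo3 together, an alternative chosen after seeing the data, 1 was called in La/Li, 2 in Ov/Li, 4 in Bo/Li, 1 in Bo/La, 1 in Bo/Ov and 4 in the F test. One was called in Bo/Li, LOC105107291, with upper quartile scaling, equal totals, equal totals without the abundant mRNAs, and FPKM summed per gene. The replicate block over all 4 groups gave 1 in Ov/Li, 2 in Bo/Li and 1 in the F test, and the block within La and Ov gave 6, 5 and 2. At an unadjusted p under 0.05 11 passed in La/Li, 20 in Ov/Li, 22 in Bo/Li, 1 in Ov/La, 5 in Bo/La, 4 in Bo/Ov and 13 in the F test. Dropping the trend in the spread, also added after seeing the data, gave 0 in all.

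Over all mRNAs, limma called 9 in La/Li, 99 in Ov/Li, 164 in Bo/Li, 0 in Ov/La, 48 in Bo/La, 35 in Bo/Ov and 86 in the F test. With 1 library left out the counts ran from 3 to 149 in La/Li, 3 to 426 in Ov/Li, 39 to 491 in Bo/Li, 27 to 447 in Bo/La, 22 to 458 in Bo/Ov and 39 to 639 in the F test. Without La3, Ov3 and Bo3 they were 5 in La/Li, 33 in Ov/Li, 740 in Bo/Li, 424 in Bo/La, 370 in Bo/Ov and 486 in the F test. A pseudocount of 0.1 gave 17 in Bo/La, 5 in Bo/Ov and 53 in the F test. Without a filter they were 59 in Ov/Li, 273 in Bo/Li, 143 in Bo/La, 135 in Bo/Ov and 189 in the F test. Upper quartile scaling gave 43 in Ov/Li. Fits of only the 2 groups compared gave 3 in La/Li, 11 in Ov/Li, 107 in Bo/Li, 8 in Bo/La and 3 in Bo/Ov. The replicate block over all groups gave 595 in Ov/Li, and the block within La and Ov gave 107 in La/Li, 1680 in Ov/Li, 944 in Bo/Li, 108 in Bo/La, 104 in Bo/Ov and 623 in the F test. FPKM summed per gene gave 17 in La/Li and 208 in Ov/Li. At an unadjusted p the counts were, in the same order, 4366, 6223, 5999, 662, 2606, 2766 and 4820. The cause of these differences was not tested.

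The median log2 change of the members in La/Li and Ov/Li became 0.0333 and 0.0196 with equal totals and 0.0483 and 0.0353 with equal totals without the abundant mRNAs, and that in La/Li became 0.0325 without La3, Ov3 and Bo3. With 1 library left out the medians ran from -0.0593 to 0.0538 in La/Li, -0.121 to 0.00995 in Ov/Li, -0.395 to -0.151 in Bo/Li, -0.229 to 0.0705 in Ov/La, -0.317 to -0.107 in Bo/La and -0.210 to -0.0198 in Bo/Ov. The mean shares of Li, La, Ov and Bo were 11.5%, 12.7%, 12.9% and 11.9% for the 50 highest mRNAs and 21.6%, 21.8%, 21.8% and 20.6% for the 200 highest. Those of Li, La and Ov were 13.96%, 14.7% and 14.8% without the most abundant mRNA, and those of Li and Ov were 14.9% and 15.7% with the lncRNAs in the total. Members chosen without 1 library took 13.9% to 15.9% in Li (15.3% without Li2), 14.8% to 16.7% in La, 14.9% to 16.9% in Ov and 13.4% to 15.5% in Bo, and the lowest of these came without Bo1, when the most abundant mRNA was left out for its low CV.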
